A study of Mus musculus with 6 samples.

Results

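The insulin-like growth factor (IGF) genes examined here are the ligands Igf1 and Igf2, the receptor Igf1r and the binding proteins Igfbp2 to Igfbp7, 9 genes of the 35275 listed. They were selected by gene name as a family, and the family was chosen because Igfbp2 was among the genes with the lowest level in the knockout libraries. RNA had been sequenced from the epithelial region of back skin of C57BL/6 mice, with 3 libraries of mice without the epithelial cytokine interleukin-33 (IL-33 KO), set against 3 libraries of wild-type mice (WT). Mice of both genotypes had received 0.25% dinitrofluorobenzene (DNFB), a contact allergen, in acetone and olive oil on the back 3 times a week for 22 days, so no untreated skin was sampled. How the Il33 allele was made, the age of the mice and whether each library came from a single animal are not stated in the labels, and p-values therefore measure the spread between these libraries, which may be technical. The comparison of the design asks how skin RNA of IL-33 KO mice differs, under repeated allergen, from that of WT mice.

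IGF-I and IGF-II are small secreted hormones that signal through the receptor tyrosine kinase IGF1R to the PI3K and AKT pathway and to growth. The binding proteins hold the ligands outside the cell, and so both store them and keep them from the receptor, until proteases such as the pappalysins cut the binding protein. In skin IGF-I comes mainly from fibroblasts and the dermal papilla, the fibroblast cluster at the base of the hair follicle, and keratinocytes respond to it through the receptor.

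Igfbp2 and Igfbp5 are neighbours. In the deposited coordinates (mm10) Igfbp2 lies on the plus strand of chromosome 1 from 72824503 to 72852474 and Igfbp5 on the minus strand from 72857932 to 72874884. The genes end facing each other, 5457 bases apart, with no listed gene between them. The 250 bases upstream of their RefSeq starts are printed because the neighbours are set against each other in the results. They were taken from RefSeq sequence of GRCm38.p6, 5′ to 3′ on the strand of the gene, and capitals mark the GC box, GGGCGG on either strand, the site recognised by Sp1.
Igfbp2, chr1:72824230-72824479, plus strand: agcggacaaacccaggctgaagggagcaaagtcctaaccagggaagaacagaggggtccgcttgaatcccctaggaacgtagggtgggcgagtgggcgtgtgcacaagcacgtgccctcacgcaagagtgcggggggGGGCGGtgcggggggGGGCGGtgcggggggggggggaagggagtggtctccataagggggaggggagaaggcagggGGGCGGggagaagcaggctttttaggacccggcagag
Igfbp5, chr1:72874866-72875115, minus strand: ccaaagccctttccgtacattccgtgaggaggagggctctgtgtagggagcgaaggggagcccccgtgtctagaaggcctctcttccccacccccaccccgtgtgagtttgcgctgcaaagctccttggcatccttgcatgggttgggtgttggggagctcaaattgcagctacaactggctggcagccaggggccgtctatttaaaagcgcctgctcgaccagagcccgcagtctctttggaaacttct
The Igfbp2 window held 3 GC boxes and had a GC content of 67.2%, and the Igfbp5 window held none at a GC content of 58.8%. At least 1 GC box was found in 32.7% of 32851 RefSeq promoter windows of this length, and 8.47% held at least as many as Igfbp2. Neither window held a TATA box (TATAAA, found in 12.4% of all windows) or an AP-1 site (TGANTCA, 6.75%), with both strands searched. The RefSeq starts differ slightly from the deposited ones. The printed Igfbp2 window stops 23 bases before the deposited start. The Igfbp5 window begins at 72874866 and so reaches into the deposited gene, which is listed up to 72874884. RefSeq gives a second Igfbp2 start, whose window is not printed and held 0 GC boxes and 1 AP-1 match. These are matches of letters and were not tested as binding sites.

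The library totals ran from 20459574 to 24359612 counts. Il33, the knocked-out gene, was counted 21, 22 and 11 times in IL-33 KO 1, 2 and 3, against 3906, 3086 and 2817 in WT 1, 2 and 3, as the labels name them. All 9 IGF genes had enough counts to be tested. WT 3 was the highest WT library for 5 of them in CPM, the counts scaled by TMM-adjusted library size. Keratin genes of the epidermis were abundant, with 12110 to 16388 FPKM summed over 6 basal keratinocyte markers in IL-33 KO, against 14076 to 20679 in WT. FPKM values are counts scaled by listed gene length and library total, so they can be compared between genes. Markers of fibroblasts, endothelium, fat and macrophages were also present in every library, so the samples were not pure epithelium. In such tissue, fewer cells of a type and less RNA per cell cannot be told apart.

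Igfbp2 stood at 46.5, 59.8 and 47.2 FPKM in IL-33 KO 1, 2 and 3, against 137.0, 108.3 and 254.7 FPKM in WT 1, 2 and 3. Every IL-33 KO library was below every WT library, and WT 3 was the highest by a wide margin. The counts were 1263 to 1850 in the IL-33 KO libraries and 3449 to 8068 in the WT libraries. The means were 51.2 ± 7.47 FPKM in IL-33 KO, against 166.7 ± 77.6 FPKM in WT (SD, n = 3 each), so the IL-33 KO mean was 30.7% of the WT mean. In the edgeR fit across 15720 genes the log2 fold change, IL-33 KO over WT, was -1.76 ± 0.28 (SE). Without WT 3 it was -1.40, and over the fits that left out 1 library it ranged between -1.96 and -1.40. Ordered by p among genes lower in IL-33 KO, Igfbp2 was number 3, after Il33 and the chemokine gene Ccl2 (log2 fold change -1.21) and before Cyr61 (-0.73). Over the fits that left out 1 library its place ran from 2 to 12, with 12 without WT 3, and it was 15 in the unfiltered log2(FPKM + 1) fit. The family was chosen for this difference, so it is a description and carries no test. IGFBP2 has an RGD sequence that binds integrins, in addition to its IGF binding.

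**Figure D1:**
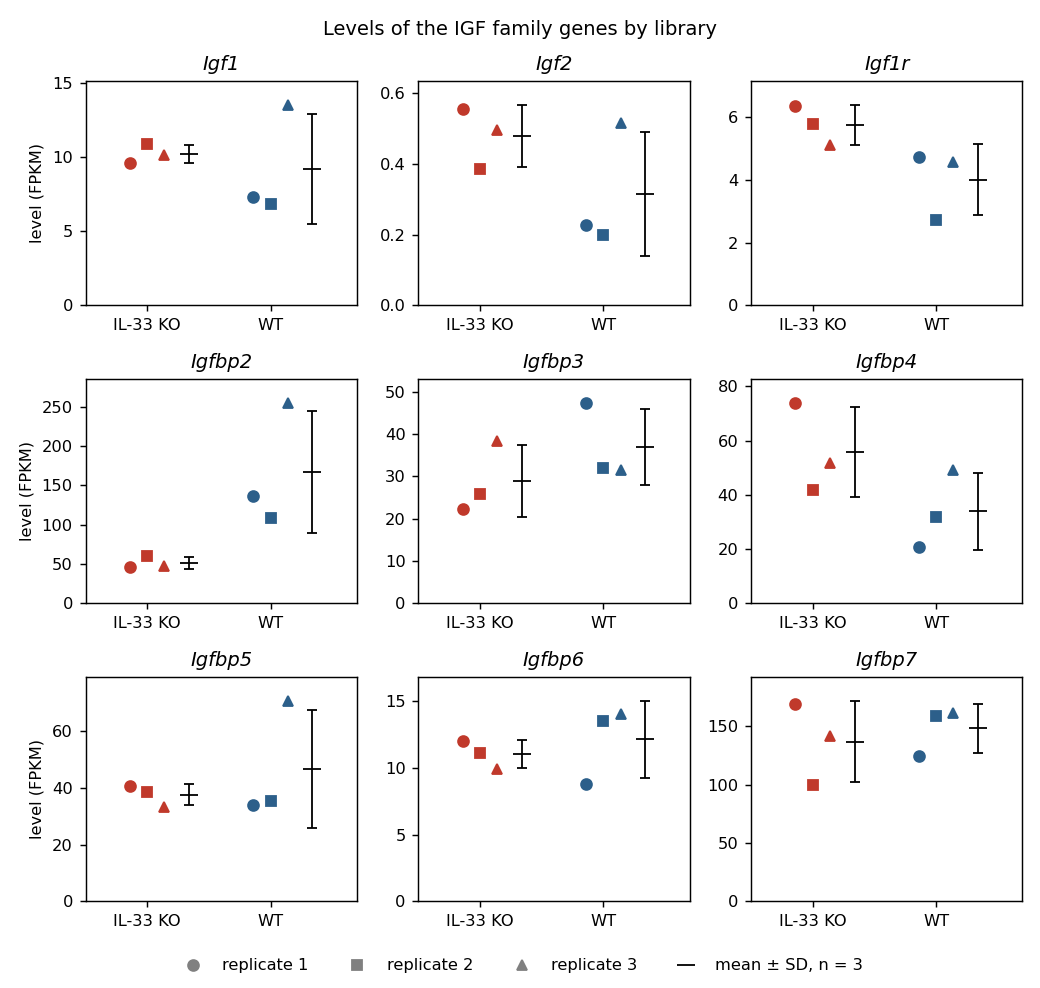
Level of each gene in FPKM (vertical axes, starting at 0) in the 3 IL-33 KO libraries (left, red) and the 3 WT libraries (right, blue), with the mean and SD of each genotype beside them. Igfbp2 is the only binding protein whose IL-33 KO libraries all lie below its WT libraries. WT 3 is the highest library for Igfbp2, Igfbp5 and Igf1, and by a small margin for Igfbp6 (14.1 FPKM, against 13.5 in WT 2).

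Of the 9 IGF genes, 0 passed the threshold of 0.05 after Benjamini-Hochberg adjustment over all genes in the quasi-likelihood test of edgeR, against 0.0191% of all tested genes (3 of 15720). At an unadjusted p under 0.05 there was 1 IGF gene, Igfbp2, against 9.02% of all tested genes. DESeq2 called 1 of the 9, again Igfbp2, where it called 0.976% of the 23873 genes it tested, and limma-voom called 0. Igfbp2 was also called with no filter on low counts, where 0.138% of all genes were, and without WT 3, where 0.15% were. In CPM, all IL-33 KO libraries were below all WT libraries for 1 IGF gene, Igfbp2, against 6.47% of all tested genes. All IL-33 KO libraries were above all WT libraries for 0 IGF genes, against 7.46% of all tested genes. Since Igfbp2 was selected on this contrast, these shares say nothing further about the family. Of the other 8 genes, 4 had a positive and 4 a negative log2 fold change, with a median of -0.06 beside -0.01 over all tested genes. Without WT 3 the median of the 8 was 0.19.

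The ligand genes differed in level. Igf1 lies on chromosome 10 (87858265 to 87937042, plus strand) and Igf2 on chromosome 7 (142650766 to 142666816, minus strand). Igf1 stood at 9.61, 10.9 and 10.1 FPKM in IL-33 KO 1, 2 and 3, against 7.31, 6.82 and 13.5 FPKM in WT 1, 2 and 3. The IL-33 KO libraries lay close together, between the lower WT pair and WT 3. Its log2 fold change was 0.09 ± 0.22 (SE, adjusted p 0.906 in edgeR), with a 95% interval of 0.749 to 1.51-fold. The direction depended on single libraries, at -0.02 without WT 1, -0.059 without WT 2 and 0.40 without WT 3. Igf2, the fetal growth ligand transcribed from the imprinted locus it shares with the noncoding RNA gene H19, had few counts. Its counts were 58, 43 and 48 in IL-33 KO 1, 2 and 3, against 23, 23 and 59 in WT 1, 2 and 3, and WT 3 was again the high WT library. Its log2 fold change was 0.54 ± 0.37 (SE, adjusted p 0.675 in edgeR) and moved to 0.32 without WT 2 and to 1.02 without WT 3. The FPKM of Igf1 was 17.3 to 28.3 times that of Igf2 in the IL-33 KO libraries and 26.2 to 34.1 times in the WT libraries, so the ranges of this ratio overlapped.

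Igf1r, the receptor that both ligands use (chromosome 7, 67952859 to 68226780, plus strand), had 6.36, 5.78 and 5.10 FPKM in IL-33 KO 1, 2 and 3, against 4.72, 2.71 and 4.58 FPKM in WT 1, 2 and 3. The genotypes did not overlap in FPKM but did in CPM, where IL-33 KO 3 (22.6) lay just under WT 1 (22.8), and WT 2 was low on both scales. The log2 fold change of 0.44 ± 0.21 (SE) did not pass (adjusted p 0.576 in edgeR), and its 95% interval reached from 0.976 to 1.89-fold. It was 0.24 without WT 2, the smallest value in any fit that left out 1 library. The deposited gene model of Igf1r ends 6888 bases short of the one in GENCODE M21, so its count rests on the shorter model.

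**Figure D2:**
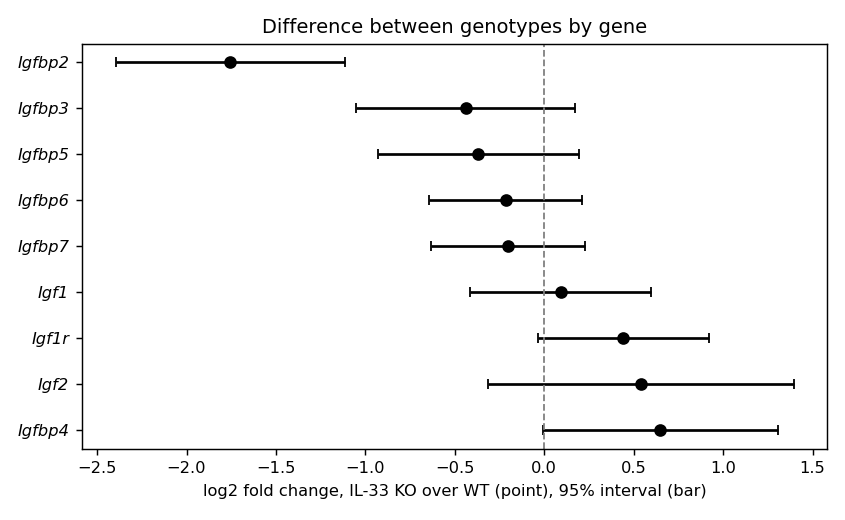
Log2 fold change of each gene, IL-33 KO over WT (points), with its 95% interval from edgeR (bars), ordered from the lowest to the highest. The intervals of the other 8 genes include 0. That of Igfbp2, the gene the family was chosen for, is a description and carries no test. The intervals are not adjusted for the number of genes tested, and Igfbp2 did not pass over all genes in edgeR.

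Among the other binding proteins, Igfbp4 and Igfbp3 had the largest differences and opposite signs. They lie far apart on chromosome 11, Igfbp4 at 99041244 to 99054392 on the plus strand and Igfbp3 at 7206086 to 7213923 on the minus strand, 3539 bases from Igfbp1. Igfbp4, an inhibitory binding protein that pappalysin-1 cleaves, stood at 73.8, 41.6 and 51.7 FPKM in IL-33 KO 1, 2 and 3, against 20.8, 31.7 and 49.2 FPKM in WT 1, 2 and 3. The genotypes overlapped through WT 3 and IL-33 KO 2. Its log2 fold change was 0.65 ± 0.29 (SE, adjusted p 0.557 in edgeR) and was 0.42 without WT 1, the lowest library, 0.43 without IL-33 KO 1 and 0.94 without WT 3. Igfbp3, the main carrier of IGF in blood, had 22.3, 25.8 and 38.4 FPKM in IL-33 KO 1, 2 and 3, against 47.3, 32.0 and 31.4 FPKM in WT 1, 2 and 3. IL-33 KO 3 lay inside the WT range and the other IL-33 KO libraries below it. The log2 fold change was -0.44 ± 0.26 (SE, adjusted p 0.636 in edgeR). It was -0.18 without WT 1 and -0.72 without IL-33 KO 3. Across the 6 libraries the log2 levels of Igfbp3 and Igfbp4 ran opposite to each other (Pearson r = -0.82, n = 6, a description of libraries that share their genotypes and tissue makeup).

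Igfbp5, which binds extracellular matrix and is cleaved by pappalysin-2, stood at 40.7, 38.5 and 33.4 FPKM in IL-33 KO 1, 2 and 3, against 33.8, 35.3 and 70.6 FPKM in WT 1, 2 and 3. WT 3 alone stood apart, and the other WT libraries lay within the IL-33 KO range. Its log2 fold change of -0.37 ± 0.24 (SE, adjusted p 0.667 in edgeR) was -0.02 without WT 3. The Igfbp2 level was set against that of its neighbour within each library. Its FPKM was 1.14, 1.55 and 1.41 times that of Igfbp5 in IL-33 KO 1, 2 and 3, against 4.06, 3.07 and 3.61 times in WT 1, 2 and 3. In this within-library ratio WT 3, which was also the highest library for Igfbp5, was no longer the highest. Igfbp2 was chosen for its difference between the genotypes, so the ratio is a description and carries no test.

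Igfbp6, which prefers IGF-II, and Igfbp7, a low-affinity relative made by blood vessels, had the narrowest intervals among the binding proteins. Igfbp6 lies on chromosome 15 (102144362 to 102149511, plus strand) and Igfbp7 on chromosome 5 (77349240 to 77408045, minus strand). Igfbp6 averaged 11.0 ± 1.04 FPKM in IL-33 KO, against 12.1 ± 2.88 in WT (SD, n = 3 each), and the IL-33 KO values all lay inside the WT range. Its log2 fold change was -0.22 ± 0.19 (SE, adjusted p 0.732 in edgeR), -0.37 without WT 1 and -0.097 without WT 2. Igfbp7 averaged 137.0 ± 34.8 FPKM in IL-33 KO, against 148.5 ± 21.0 in WT, with IL-33 KO 1 (169.3) the highest and IL-33 KO 2 (100.1) the lowest of all 6 libraries. Its log2 fold change was -0.20 ± 0.19 (SE, adjusted p 0.749 in edgeR), and leaving out its highest or its lowest library, both IL-33 KO, gave -0.35 or -0.035. Igfbp7 overlaps Polr2b on the opposite strand, so some of its reads may belong to that gene. The 95% intervals reached from 0.640 to 1.16-fold for Igfbp6 and from 0.645 to 1.17-fold for Igfbp7.

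In IL-33 KO the mean FPKM, highest first, ran in the order Igfbp7, Igfbp4, Igfbp2, Igfbp5, Igfbp3, Igfbp6, Igf1, Igf1r and Igf2. The ranges of Igfbp4 and Igfbp2, of Igfbp5 and Igfbp3, and of Igfbp6 and Igf1 overlapped there. In WT the order was Igfbp2, Igfbp7, Igfbp5, Igfbp3, Igfbp4, Igfbp6, Igf1, Igf1r and Igf2, where Igfbp2 overlapped Igfbp7, Igfbp5 overlapped Igfbp3, Igfbp3 overlapped Igfbp4 and Igfbp6 overlapped Igf1. The first place of Igfbp2 in WT rested on WT 3, without which Igfbp7 was first there too, at a mean of 141.8 FPKM beside 122.7 for Igfbp2. Igfbp2 made up 12.8%, 21.6% and 14.7% of the FPKM summed over the 6 binding proteins in IL-33 KO 1, 2 and 3, against 36.8%, 28.5% and 43.8% in WT 1, 2 and 3. This share, too, is a description of the gene the family was chosen for. The sum itself averaged 321.3 ± 43.8 FPKM in IL-33 KO, against 444.6 ± 118.9 in WT (SD, n = 3 each). Without WT 3 the WT mean of the sum was 376.1 FPKM. With Igfbp2 taken out it was 270.2 ± 50.6 FPKM in IL-33 KO, against 278.0 ± 46.4 in WT, and the genotypes overlapped.

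**Figure D3:**
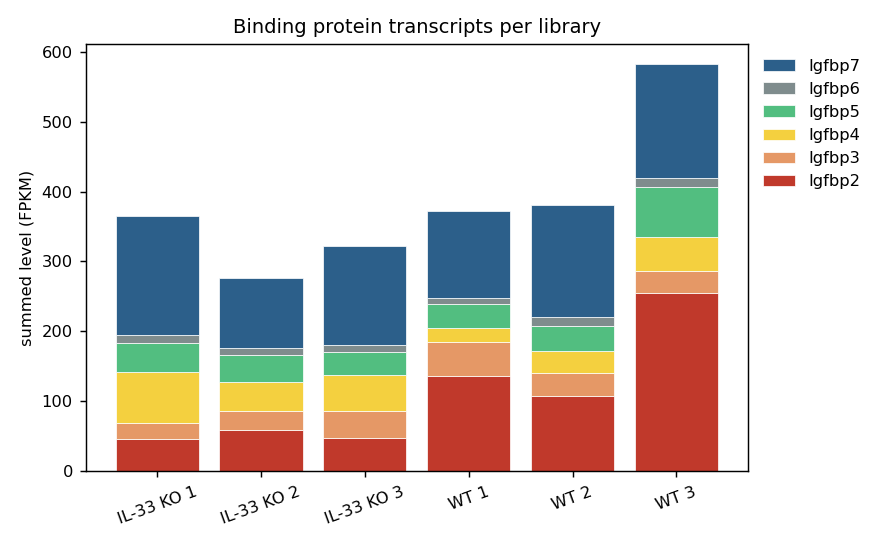
FPKM of the 6 binding protein genes stacked for each library (vertical axis, starting at 0), IL-33 KO on the left and WT on the right. The Igfbp2 segment is 46.5 to 59.8 FPKM in IL-33 KO, against 108.3 to 254.7 in WT, while the rest of the stack spans 217.3 to 318.1 FPKM in IL-33 KO, against 235.0 to 327.1 in WT.

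Of 59 further genes of the IGF system, 52 could be tested and 0 passed over all genes in edgeR, with 3 at an unadjusted p under 0.05 (5.77%, beside 9.02% of all tested genes). DESeq2 called 1 of 57, Cyr61 (1.75%, beside 0.976% of all genes it tested). Without WT 3 there were 9 at an unadjusted p under 0.05 (17.3%, beside 17.2% of all tested genes). Their log2 fold changes were positive in 29 and negative in 23, with a median of 0.05 beside -0.01 over all tested genes. The median turned to -0.01 when IL-33 KO 2 was left out and to -0.02 when WT 2 was, and it was 0.11 without WT 3. Among receptors and carriers, Igf2r, which clears IGF-II, averaged 10.2 ± 1.24 FPKM in IL-33 KO, against 8.66 ± 0.622 in WT, and the insulin receptor gene Insr 4.17 ± 0.678 FPKM in IL-33 KO, against 3.80 ± 1.05 in WT (SD, n = 3 each). Igfbp1 had 1 count in all 6 libraries together, and Ins1 and Ins2 had 0. Among the proteases and their inhibitors, Pappa2, pappalysin-2, was at 0.418, 0.257 and 0.241 FPKM in IL-33 KO 1, 2 and 3, against 0.0986, 0.0992 and 0.247 in WT 1, 2 and 3 (log2 fold change 0.97 ± 0.39, adjusted p 0.539 in edgeR, and 1.48 without WT 3). Htra1, a secreted serine protease that also cuts IGFBP5, had 72.6, 90.5 and 80.3 FPKM in IL-33 KO 1, 2 and 3, against 86.1, 94.1 and 164 in WT 1, 2 and 3 (log2 fold change -0.56 ± 0.22, adjusted p 0.533 in edgeR). WT 3 was again the high library, and the value without it was -0.28.

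Of the 29 signalling genes downstream of the receptor, 0 passed over all genes in edgeR. Their log2 fold changes were positive in 21 and negative in 8, where all 15720 tested genes had 7544 and 8176. Beside a median of -0.01 over all tested genes, that of the 29 was 0.08. Over the fits that left out 1 library it ran from 0.06 without IL-33 KO 2 to 0.14 without WT 3 or without IL-33 KO 3. Without WT 2 the median was 0.07, and 18 of the 29 were positive and 11 negative. Those with the smallest p were Tsc1, an inhibitor of mTOR signalling (3.45 ± 0.376 FPKM in IL-33 KO, against 2.65 ± 0.434 in WT), and Rheb, the activator of mTOR that the TSC complex restrains (18.8 ± 1.93 FPKM in IL-33 KO, against 20.5 ± 0.464 in WT), with adjusted p of 0.557 and 0.603 in edgeR. In the growth hormone and STAT5 list, 1 of 6 genes had a positive and 5 a negative value, but 4 were positive without IL-33 KO 3 and 3 without WT 3. The growth hormone receptor gene Ghr was at 12.5 ± 3.86 FPKM in IL-33 KO, against 8.96 ± 2.18 in WT. Socs2, a feedback inhibitor of growth hormone signalling, was at 1.64 ± 0.0729 FPKM in IL-33 KO, against 1.72 ± 0.486 in WT. Of the Igf2 locus, H19 was at 8.75, 6.84 and 18.2 FPKM in IL-33 KO 1, 2 and 3, against 3.72, 7.13 and 7.33 in WT 1, 2 and 3 (log2 fold change 0.82 ± 0.39, adjusted p 0.576 in edgeR). IL-33 KO 3 was the high library, and the value without it was 0.27. The mRNA binding protein gene Igf2bp2 was at 1.47 ± 0.313 FPKM in IL-33 KO, against 1.60 ± 0.342 in WT. The CCN genes, matricellular proteins with an IGFBP-like domain, had negative values in 5 of 5, with a median of -0.63. Both rested on WT 3, without which 3 of 5 were negative, the median was -0.21, and Nov stood at 0.94 where it was -0.63 with all libraries. Cyr61 was at 16.9 ± 1.32 FPKM in IL-33 KO, against 26.6 ± 4.52 in WT, with no overlap (log2 fold change -0.73 ± 0.12, adjusted p 0.187 in edgeR and 0.00115 in DESeq2). Wisp2 was at 6.07 ± 1.21 FPKM in IL-33 KO, against 11.5 ± 9.07 in WT, where WT 3 alone was high, and its log2 fold change of -0.96 was -0.21 without WT 3.

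By Pearson correlation of log2 CPM over the 6 libraries, the 5 genes outside the family most like Igfbp2 were Yipf5 (r = 0.99), Lysmd2 (0.99), Unc5c (0.99), Cog6 (0.98) and Slc6a4 (0.97). Of these, Unc5c, a netrin receptor gene, had the largest log2 fold change, -1.26 ± 0.30 (SE), with IL-33 KO 1, 2 and 3 at 1.64, 1.98 and 1.40 CPM, against 3.38, 3.14 and 5.56 in WT 1, 2 and 3. The values of the other 4 lay between -0.62 and -0.18, closer to 0 than that of Igfbp2. With 6 libraries and 15720 genes, correlations of this height describe the libraries only. Within the family, Igfbp5 was the gene most like Igfbp2 (r = 0.72). WT 3 was the highest library for both. For Igfbp5 it stood apart, at a log2 CPM of 8.66 against 7.63 to 7.85 in the other libraries. The correlation without WT 3 was not computed.

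Summed marker levels of cell types that the skin pieces could hold are given beside the IGF genes. Fibroblast markers, including the collagen genes Col1a1 and Col3a1, summed to 2964, 2851 and 2460 FPKM in IL-33 KO 1, 2 and 3, against 2466, 2883 and 4904 in WT 1, 2 and 3. WT 3 was the highest library. The sums of WT 1 and WT 2 lay within the range of the IL-33 KO libraries. Of the 7 fibroblast genes, 6 had a negative log2 fold change, with a median of -0.35. Without WT 3, 6 were still negative and the median was -0.06. In CPM, all IL-33 KO libraries were below all WT libraries for 2 of the 7, against 6.47% of all tested genes. Hair follicle markers, including the inner root sheath genes Krt71 and Tchh, summed to 8501, 3905 and 3995 FPKM in IL-33 KO 1, 2 and 3, against 1283, 981 and 2273 in WT 1, 2 and 3. All 13 tested genes of that list had positive values, with a median log2 fold change of 1.85. Dermal papilla markers, led by Wif1 and Rspo4, summed to 18.3, 10.3 and 14.6 FPKM in IL-33 KO 1, 2 and 3, against 7.48, 4.77 and 12.4 in WT 1, 2 and 3. Of the 6 tested genes of that list, 5 had a positive log2 fold change and 1, Rspo4, a negative one (-0.17), with a median of 1.37. Adipocyte markers, led by Fabp4 and Cidec, had 361.5 to 668.7 FPKM in IL-33 KO, against 112.7 to 477.2 in WT, with WT 1 lowest. The part of these differences in the IGF values was not tested.

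Sums of endothelial markers such as Pecam1 and Esam (65.3 to 84.6 FPKM in IL-33 KO, against 71.7 to 82.9 in WT) and of pericyte and smooth muscle markers such as Rgs5 and Acta2 (96.9 to 151.6 in IL-33 KO, 74.2 to 117.6 in WT) overlapped between the genotypes. So did those of macrophage markers such as C1qa and C1qb (192.6 to 283.3 in IL-33 KO, 219.7 to 299.6 in WT), and of the melanocyte and Schwann cell markers led by Dct and Pmel (66.9 to 132.1 in IL-33 KO, 43.1 to 73.2 in WT). Bulge markers such as Krt15 and Cd34 (271.5 to 357.8 in IL-33 KO, 133.9 to 319.4 in WT) and suprabasal keratinocyte markers such as Krt1 and Krt10 (5891 to 12034 in IL-33 KO, 9848 to 17704 in WT) overlapped as well. The basal keratinocyte sums, carried by Krt14 and Krt5, also overlapped. All 6 suprabasal genes had a negative log2 fold change (median -0.55), also in every fit that left out 1 library. All 6 basal genes were negative too (median -0.08), but 3 were positive without IL-33 KO 1 or without WT 1. Skeletal muscle markers such as Acta1 and Tnnt3 were at 62.5 and 113.5 FPKM in IL-33 KO 1 and 3, at 1.50 in IL-33 KO 2, and at no more than 1.29 in WT. Of the 88 marker genes tested, 0 passed in edgeR, and 32 had an unadjusted p under 0.05 (36.4%, beside 9.02% of all tested genes). DESeq2 called 18 of the 92 it tested (19.6%, beside 0.976%), all of them hair follicle, skeletal muscle or melanocyte markers. The lists were chosen with earlier results of these data known, so these shares are a description and carry no test.

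**Figure D4:**
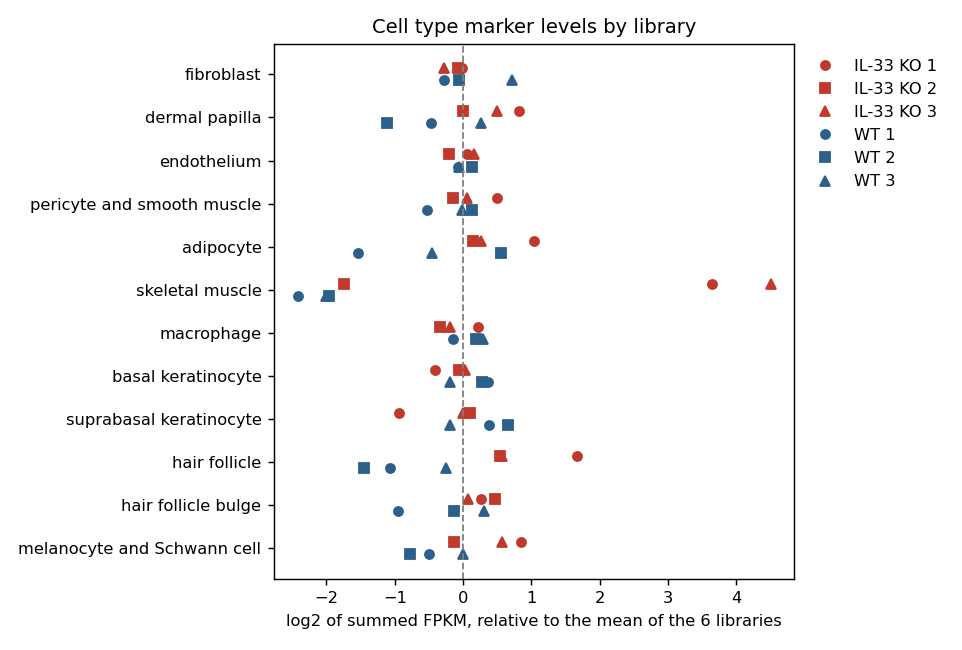
Log2 of the FPKM summed over each cell type marker list, relative to the mean of the 6 libraries (horizontal axis), for the IL-33 KO libraries (red, upper points of each row) and the WT libraries (blue, lower points). WT 3 stands to the right of all other libraries for fibroblast markers, and by a small margin for macrophage markers. The IL-33 KO libraries stand to the right of the WT libraries for hair follicle markers and for skeletal muscle markers. For skeletal muscle, IL-33 KO 2 lies close to WT (1.50 FPKM, against at most 1.29).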

How the data were processed

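The authors deposited whole-number read counts and FPKM for 35275 genes in each of the 6 libraries. The submitters' processing notes name STAR, RSEM and mm10 without versions, and the treatment of strand and of multi-mapping reads is not known from them. The deposited FPKM equal counts divided by listed gene length and column total, to a relative difference of at most 2.782e-07. Counts were tested with edgeR 4.0.16 in R 4.3.3: filterByExpr by genotype (15720 genes kept), TMM scaling, glmQLFit and glmQLFTest, two-sided, Benjamini-Hochberg over all genes, threshold 0.05. Standard errors were derived from the F statistic. The code was tested on simulated counts. The alternatives comprised other scaling and filters, DESeq2 1.42.0, limma 3.58.1 (voom, and limma-trend on log2(FPKM + 1) or log2(FPKM + 0.1)), a robust fit, a replicate block and leaving out each library.

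The family, the 18 gene lists and the tests were chosen with earlier results of these data known. Named genes were all 9 family members, Il33, in each list of IGF system genes the 2 with the smallest p, in each marker list the 2 with the highest FPKM, and the 5 genes most correlated with Igfbp2. Ccl2, Igfbp1, Ins1, Ins2, Nov, Polr2b, Xrcc5, Smarcal1 and Rpl37a fall outside this rule and were named after their values were seen. Of 152 list symbols 151 were matched, 1 of them (Adgre1, listed as Emr1) by identifier. Same-numbered libraries of the genotypes did not deviate together (r between -0.38 and -0.12 over genes), and the numbers were not used to pair them. All pairs of libraries differed by more than sampling noise (chi-square at least 34.0 per degree of freedom). Promoter sequences came from RefSeq GRCm38.p6, where all 9 genes were matched. Figures were drawn with matplotlib 3.10.9.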

Additional observations from a re-analysis of the deposited data

How the results depend on the processing

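The log2 fold change of Igfbp2 kept its sign and moved by less than the replicate SD of 0.42 in all 18 alternatives, and was -1.70 with the replicate block. The number of IGF genes called was 0 in 15 alternatives and 1 (Igfbp2) in DESeq2, with no filter beyond 1 count, and without WT 3, so over the fits that left out 1 library it was 0 to 1. The number of genes called over all genes, 3 (2 higher and 1 lower), was 5 with upper quartile scaling or total counts (4 higher and 1 lower in each), 5 with a minimum of 1 CPM in 3 libraries, 33 with no filter, 233 in DESeq2, 11 in limma-voom, 15 with log2(FPKM + 1), 11 with log2(FPKM + 0.1), 6 with log2(FPKM + 1) and no filter, and 2 with the replicate block. It was 2 to 24 over the fits that left out 1 library, with 24 without WT 3, 10 or 5 without the second or the third IL-33 KO library; the cause was not tested. Of the other 8 IGF genes, 0 passed under any alternative, and 7 kept their sign in all. With 1 library left out, Igf1 spanned -0.059 to 0.40 (below 0 without WT 1 or WT 2), Insr -0.042 to 0.24 (below 0 without IL-33 KO 2 or WT 2) and Socs2 -0.27 to 0.039 (above 0 without WT 3). Igf2 was not in the filtered FPKM fits, since it was under 1 FPKM in every library, and its 23 to 59 counts limit its precision.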

Other observations

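Values of the tested genes around Igfbp2 are given as a description, since Igfbp2 was chosen for its own difference. Within 500000 bases on either side, 4 other genes had enough counts, and their log2 fold changes were -0.02 ± 0.11 for the DNA repair gene Xrcc5, 0.03 ± 0.14 for the chromatin remodeller gene Smarcal1, -0.36 ± 0.28 for the ribosomal protein gene Rpl37a and -0.37 ± 0.24 for Igfbp5 (SE). None of the 4 passed over all genes in edgeR (adjusted p of 0.667 or more), and neither did Igfbp2. Each of the 4 overlapped between the genotypes. Whether the Igfbp2 value differs from theirs was not tested.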
